A study of Mus musculus with 12 samples.

Results

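The genes that move calcium and ions in the heart muscle cell were examined in left ventricular tissue of adult mouse hearts with and without *Rpl3l*. The group holds 35 genes of calcium release and reuptake, ion channels, pumps and gap junctions. They were chosen by name, with earlier results of these data known. Each had 1 row among the 21669 transcript names counted in every library. Ribosome profiling, which counts the stretches of mRNA that ribosomes shield from an RNase (footprints, or RPF for ribosome-protected fragments), was set beside sequencing of polyadenylated RNA from undigested lysate. Each assay was run on 3 WT and 3 KO biological replicates, which gave 4 groups and 12 libraries. WT denotes wild-type hearts and KO hearts of genotype Rpl3l-/-, which lack a paralog of the ribosomal protein Rpl3. Strain, sex, age beyond adult and the allele are not given in the sources used here.

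In each heartbeat an action potential opens L-type calcium channels, and the calcium that enters opens the ryanodine receptor Ryr2 in the sarcoplasmic reticulum (SR). The SERCA pump Atp2a2, held back by phospholamban (Pln), returns calcium to the SR, and the exchanger Slc8a1 carries it out of the cell. Potassium channels end the action potential, and gap junctions pass it from cell to cell.

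Total counts lay between 3827862 and 7474602 in RPF and between 6635242 and 8459004 in RNA. Mitochondrially encoded mRNAs took 49.8% to 58.2% of the RNA counts, which left 2814810 to 4023519 nuclear counts per RNA library. Counts were expressed as CPM, counts scaled to a common library size, and 3 counts, taken as the detection floor, came to 0.355 to 0.452 CPM in RNA and 0.401 to 0.784 CPM in RPF. RNA counts of the targeted gene *Rpl3l* were 2987, 2726 and 3329 (WT) and 276, 310 and 442 (KO), and its RPF counts were 937, 985 and 1108 (WT) and 65, 30 and 61 (KO), so that each KO library lay below each WT library. All 10 cardiomyocyte markers were detected in both assays, and the summed CPM of 8 marker lists for heart cell types overlapped between genotypes in both assays. Over all genes, 5.77% were lower in KO without overlap in footprints, and 7.33% had no overlap in either direction in RNA. Of the 10 cardiomyocyte markers, *Myl2* and *Tnni3* in footprints and *Mybpc3* and *Myh6* in RNA were lower in KO without overlap, and 0 were higher. Their part in the values of the members was not tested. Whether a lower count reflects fewer cells of a type or less RNA per cell cannot be told apart in bulk tissue. The RNA libraries WT 3, KO 1 and KO 3 stood apart from WT 1, WT 2 and KO 2 on the first principal component of log2 CPM (47.9% of the variance), an order that does not follow genotype. In RPF the first component (37.4%) set WT 1, at 60.8, apart from the other 5 libraries, at -14.7 to -7.91. All p-values below are from edgeR's quasi-likelihood test, and adjusted p-values are over all genes tested (Benjamini-Hochberg).

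In the comparison of KO with WT, no member had an adjusted p below 0.05 in either assay. In RNA 29 members were tested, 0 were called at an unadjusted p below 0.05, and 0 had KO libraries that all lay on one side of the WT libraries. Over all 8379 genes 0.0119% were called at an adjusted p below 0.05, 2.54% had an unadjusted p below 0.05 and 7.33% had no overlap of genotypes. In footprints 34 members were tested. Every KO library lay above every WT library for 5 members (14.7%, against 6.27% of all 11153 genes) and below for 3 (8.82%, against 5.77%). An unadjusted p below 0.05 was found for 7 (20.6%), against 5.96% of all genes, while 0.00897% of all genes were called at an adjusted p below 0.05. Of these 7, 5 were higher in KO (2.73% of all genes) and 2 lower (3.23% of all genes). That count moved with single libraries, being 1 without KO 2, 3 without WT 2, 3 without WT 3, 5 without KO 1, 7 without KO 3 and 9 without WT 1. It was 3 in a fit of all 12 libraries, 8 with a mean of at least 50 counts and 9 without a filter. In the fit of all 12 libraries *Jph2*, *Kcna5* and *Fxyd1* stayed below 0.05. There the unadjusted p was 0.061 for *Cacna2d1*, 0.106 for *Kcnj2*, 0.119 for *Gja5* and 0.190 for *Casq2*. Because the members were chosen with earlier results of these data known, their shares beside those of all genes are a description only.

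**Figure D1:**
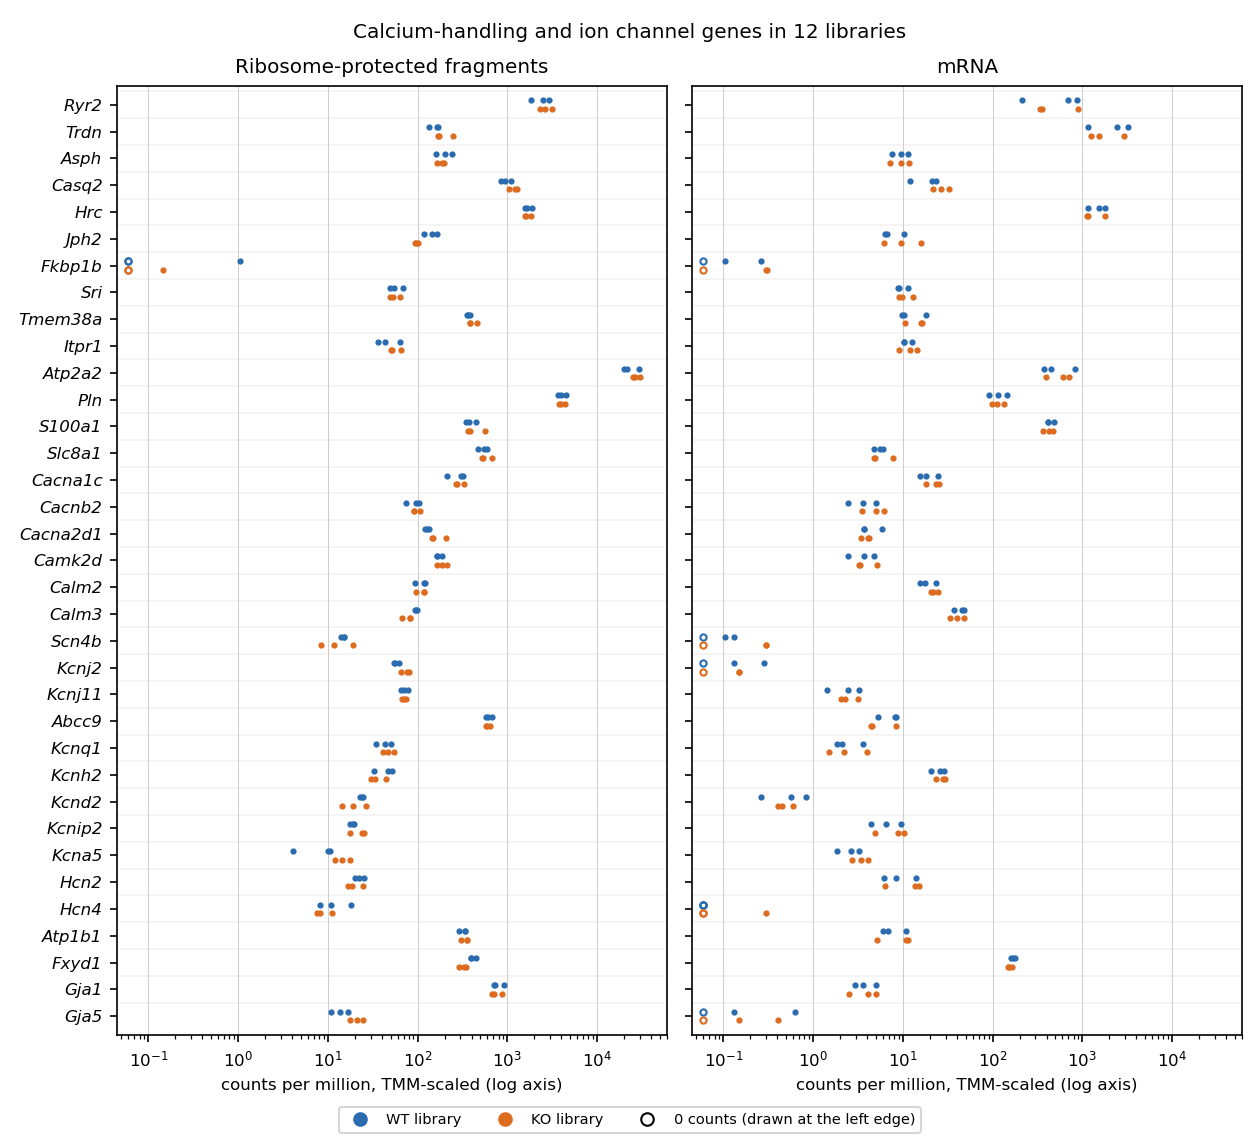
Normalised counts of the 35 genes in each library, with footprints on the left and mRNA on the right, in CPM on a log axis. Each point is 1 library, blue for WT and orange for KO, and open points at the left edge stand for 0 counts. WT and KO points overlap for most genes, and 6 genes lie at or near 0 in mRNA (at most 8 counts) while 5 of those 6 have footprints.

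The SR calcium release unit is built around *Ryr2*, the release channel, with triadin (*Trdn*), junctin (1 product of *Asph*) and calsequestrin (*Casq2*), the calcium buffer of the SR lumen, at its luminal side. The *Asph* row is the isoform with 2223 coding bases, the longest of 15 annotated coding isoforms that go down to 220. Its counts do not show how much comes from junctin. *Ryr2* footprints were 2929.8, 2477 and 1838 CPM in WT and 2325, 3171 and 2630.3 CPM in KO. The genotypes overlapped, with the lowest value in WT 3 and the next in KO 1. *Casq2* footprints were 1101, 854 and 944 CPM in WT and 1207, 1298 and 1048 CPM in KO. The KO libraries were the higher ones, but KO 3 lay below WT 1, and the log2 fold change was 0.29 (SE 0.13, unadjusted p = 0.036, adjusted p = 0.834). *Trdn* footprints were 135, 170 and 165 CPM in WT and 169, 249.7 and 175 CPM in KO, highest in KO 2, and those of *Asph* (240.1, 201 and 160.3 CPM in WT and 199, 186 and 165 CPM in KO) overlapped fully. *Hrc*, the histidine-rich calcium-binding protein of the SR, had 1877, 1554 and 1638 CPM in WT and 1572, 1859 and 1615 CPM in KO, with KO and WT values interleaved.

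Junctophilin 2 (*Jph2*) tethers the SR to the T-tubule membrane and so holds the release channel opposite the L-type channel. Its footprints were 144, 164 and 117 CPM in WT and 96.5, 94.3 and 101 CPM in KO. The 3 KO libraries were alike and all lay below the lowest WT library. The log2 fold change of -0.54 (SE 0.15) had the lowest unadjusted p of the group (0.0030) and an adjusted p of 0.833, and did not pass, nor under the alternatives run, where the adjusted p in footprints was at least 0.160. *Jph2* mRNA did not run the same way, at 6.74, 6.36 and 10.4 CPM in WT and 15.8, 6.14 and 9.62 CPM in KO, with KO 1 highest. TE here stands for the KO against WT change in translational efficiency, that is the log2 change of footprints less that of mRNA. For *Jph2* it was -0.93 (SE 0.37, unadjusted p = 0.024, adjusted p = 0.9997) in edgeR's interaction test over all 12 libraries, and -0.53 without KO 1. Per-replicate log2 ratios of footprints to mRNA overlapped, at 2.74, 2.99 and 1.85 in WT and 0.97, 2.28 and 1.75 in KO. Of 29 members tested in TE this was the 1 with an unadjusted p below 0.05, against 3.73% of all 8044 genes. At an adjusted p below 0.05, 0 members and 0.0% of all genes were called. Members without overlap of genotypes in the per-replicate ratio were 0 of 29, against 8.65% of all genes. These ratios match footprint and RNA libraries by replicate number, which nothing states to be pairs, so that the overlap depends on that matching. The other 28 members ran from -0.45 (*Hcn2*) to 0.63 (*Trdn*) in TE.

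*Tmem38a*, which encodes the SR cation channel TRIC-A, had footprints of 359, 383 and 364 CPM in WT and 388, 454 and 388 CPM in KO. The KO libraries lay just above the WT libraries, with KO 2 apart from the other two, and the log2 fold change was 0.16 (SE 0.12, adjusted p = 0.871). Without KO 2 it was 0.08. Sorcin (*Sri*), a calcium-binding modulator of the release channel, had 68.5, 49.8 and 54.8 CPM in WT and 63.6, 49.6 and 53.9 CPM in KO, and *Itpr1*, the inositol trisphosphate receptor, had 36.4, 64.3 and 43.4 CPM in WT and 64.8, 51.5 and 50.7 CPM in KO. Both overlapped between genotypes. *Fkbp1b*, whose product binds Ryr2, was listed with 0, 0 and 5 footprint counts in WT and 0, 1 and 0 in KO and with at most 3 RNA counts in any library, and was the only member not tested in footprints.

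Calcium reuptake gave the most footprints of the group. *Atp2a2* footprints were 28938, 20091 and 21700 CPM in WT and 25089, 30162 and 26326 CPM in KO, and *Pln* footprints were 4500.4, 3706 and 4003 CPM in WT and 3804, 4423 and 3983 CPM in KO. *Pln* averaged 4069.9 ± 401 CPM over the WT libraries and 4070.2 ± 318 CPM over the KO libraries (± SD, n = 3 each). The genotypes overlapped for both genes. *S100a1*, a calcium sensor that acts on the release channel and the pump, had 378, 346 and 446 CPM in WT and 561, 369 and 382 CPM in KO, with KO 1 highest. The exchanger gene *Slc8a1* had 591, 556 and 465 CPM in WT and 529.5, 667 and 521 CPM in KO, with overlap.

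**Figure D2:**
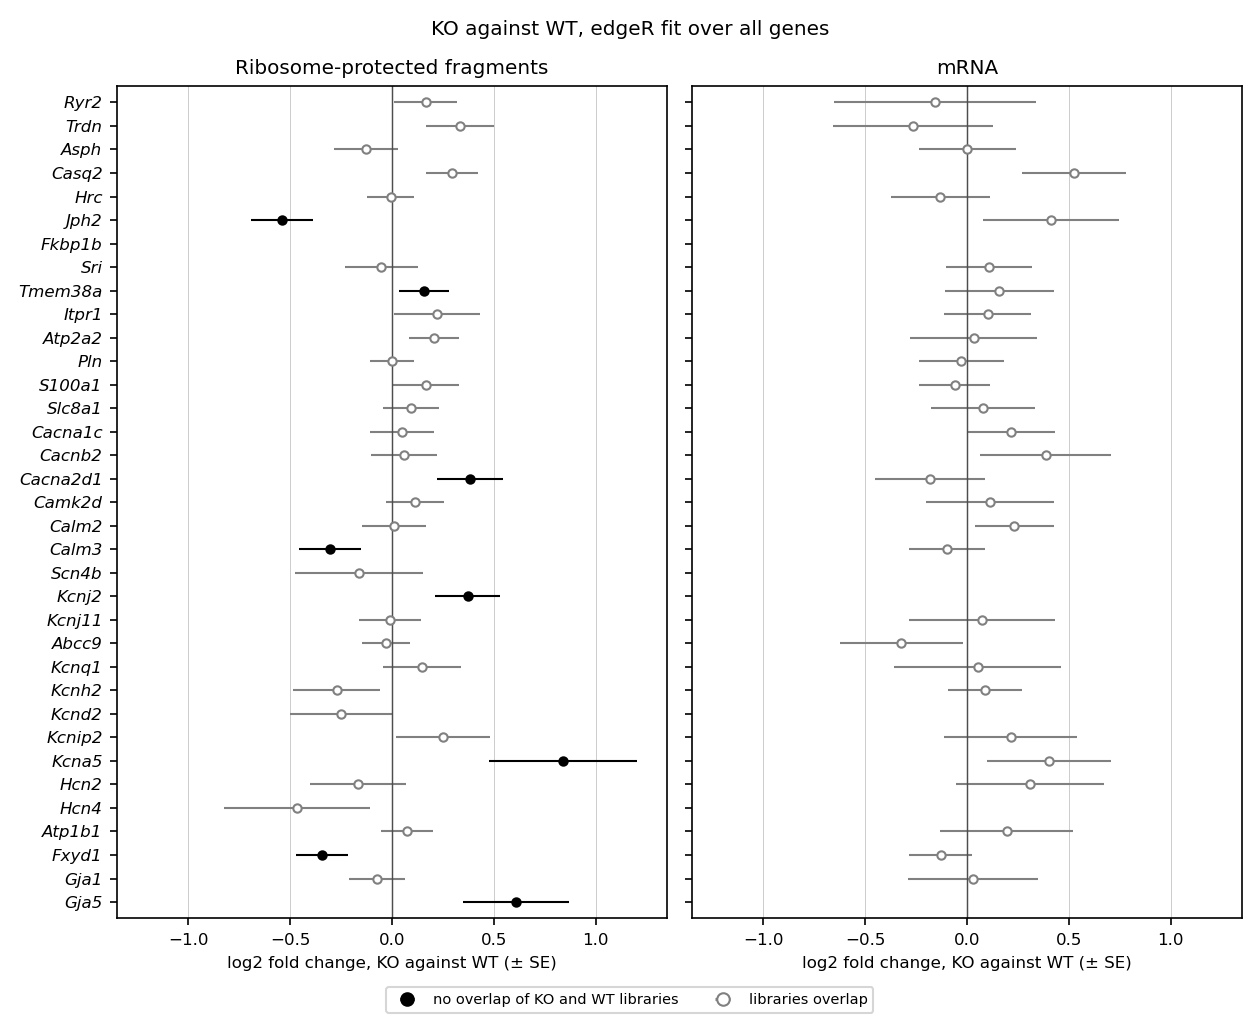
Log2 fold change of KO against WT with its SE for each member tested, in footprints on the left and mRNA on the right. Filled points mark the 8 members whose KO and WT footprint libraries do not overlap, and no mRNA point is filled.

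At the plasma membrane, *Cacna1c* encodes the pore of the L-type channel and *Cacnb2* and *Cacna2d1* its auxiliary subunits. The pore had footprints of 306, 319 and 214 CPM in WT and 269.8, 326 and 273 CPM in KO and *Cacnb2* of 74.1, 96.7 and 105 CPM in WT and 105, 91.0 and 91.0 CPM in KO, both overlapping between genotypes. *Cacna2d1* footprints were 135, 120.2 and 128 CPM in WT and 147, 209.5 and 144 CPM in KO. Every KO library lay above every WT library, but KO 2 lay far above the other KO libraries. The log2 fold change was 0.38 (SE 0.16, unadjusted p = 0.030, adjusted p = 0.834), and 0.19 without KO 2. The kinase gene *Camk2d*, which acts on channels and phospholamban, had 188, 165 and 167 CPM in WT and 164, 213 and 185 CPM in KO, with overlap.

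Calmodulin, the sensor through which calcium acts on these channels and kinases, is made as 1 protein from several genes, and *Calm2* and *Calm3* were in the group. *Calm2* footprints were 117, 92.5 and 120.3 CPM in WT and 117, 119 and 96.8 CPM in KO and overlapped. *Calm3* footprints were 94.4, 95.1 and 97.9 CPM in WT and 83.1, 82.5 and 66.6 CPM in KO, lower in all 3 KO libraries and lowest in KO 3, with a log2 fold change of -0.31 (SE 0.15, unadjusted p = 0.061, adjusted p = 0.834). Without KO 3 the log2 fold change was -0.20. The first coding bases of both transcripts are shown because counts of near-identical genes can be split between them, and the bases at which they differ are in capitals (GENCODE M21, GRCm38, 5′ to 3′).
Calm2-201, coding bases 1 to 60: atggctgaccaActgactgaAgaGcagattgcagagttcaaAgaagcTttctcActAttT
Calm3-201, coding bases 1 to 60: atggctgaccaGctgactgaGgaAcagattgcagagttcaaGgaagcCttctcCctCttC
The stretch shown differs at 8 bases. Over the 447 coding bases 78 differ, while none of the 149 residues does, and no stretch of 28 bases, about the length of a footprint, was identical at the same place. Of the 420 such stretches in *Calm2*, 294 also occurred in other genes, annotated with the symbols *Gm14480*, *Gm15720*, *Gm7039* and *Gm7308*, as did 134 of 420 in *Calm3* with *Gm5881*. The counts of both are uncertain to that extent.

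Among potassium channels, *Kcnj2*, the inward rectifier that sets the resting potential, had footprints of 62.1, 54.0 and 56.0 CPM in WT and 80.7, 76.4 and 65.6 CPM in KO. Each KO library lay above each WT library, with a log2 fold change of 0.37 (SE 0.16, unadjusted p = 0.033, adjusted p = 0.834). *Kcna5*, the channel of the ultrarapid repolarising current, had the largest fitted footprint change of the group, 0.84 on the log2 scale (SE 0.36, unadjusted p = 0.036, adjusted p = 0.834). Its footprint counts were few, 20, 40 and 48 (WT) and 130, 99 and 57 (KO), or 4.11, 10.5 and 10.2 CPM in WT and 17.5, 14.5 and 11.9 CPM in KO, with WT 1 far below the rest, and was 0.51 without WT 1. Of 1779 stretches of 28 coding bases in *Kcna5*, 131 also occurred in other genes (*Kcna6*). The other potassium channel genes overlapped between genotypes in footprints, namely *Kcnj11* and *Abcc9* of the ATP-sensitive channel, *Kcnq1* and *Kcnh2* of the delayed rectifiers, and *Kcnd2* and its partner *Kcnip2* of the transient outward current. Over all 6 libraries their footprints lay at 64.9 to 78.4 CPM for *Kcnj11*, 578 to 671 for *Abcc9*, 34.8 to 54.8 for *Kcnq1*, 30.4 to 51.7 for *Kcnh2*, 14.3 to 26.5 for *Kcnd2* and 17.8 to 25.6 for *Kcnip2*. The pacemaker channel genes *Hcn2* (16.8 to 25.3 CPM) and *Hcn4* (7.62 to 18.3 CPM, highest in WT 1) overlapped as well. *Scn4b*, a sodium channel beta subunit, had 14.2, 15 and 15.2 CPM in WT and 19.3, 11.7 and 8.38 CPM in KO, with the highest and the lowest values both in KO.

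*Fxyd1* encodes phospholemman, the regulator of the sodium pump, and *Atp1b1* a beta subunit of that pump. *Fxyd1* footprints were 389, 449 and 389.6 CPM in WT and 327, 289 and 351 CPM in KO. All KO libraries lay below all WT libraries, with a log2 fold change of -0.34 (SE 0.13, unadjusted p = 0.017, adjusted p = 0.834), while *Atp1b1* overlapped at 293, 335 and 335 CPM in WT and 352, 359.9 and 302 CPM in KO. Of the gap junction genes, *Gja1* (the connexin of the working ventricle) had 929, 712 and 728 CPM in WT and 679, 705 and 868 CPM in KO and overlapped. *Gja5* (a connexin of atrium and conduction system) had 16.7, 10.8 and 13.7 CPM in WT and 17.7, 21 and 24.7 CPM in KO, all KO above all WT, with a log2 fold change of 0.61 (SE 0.26, unadjusted p = 0.034, adjusted p = 0.834). The log2 fold change was 0.47 without WT 2 and 0.49 without KO 3.

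Since *Gja5*, *Kcna5* and *Hcn4* are also known from atrial or conduction cells, marker lists for these were read beside them. The 10 atrial markers summed to 2624, 3537 and 2494 CPM in WT footprints and 2873, 3604 and 3664 CPM in KO footprints. In RNA the sums were 2428, 2766 and 1784 CPM in WT and 2189, 4371 and 3705 CPM in KO. Within that list 2 genes were higher in KO without overlap in footprints (*Bmp10* and *Sln*, against 6.27% of all genes), and 2 others in RNA (*Fgf12*, and *Dkk3* with 0 to 1 counts in WT and 3 to 7 in KO), where 7.33% of all genes had no overlap in either direction. None of the 10 was lower without overlap in either assay. The 8 conduction markers summed to 147 to 159 CPM in WT and 135 to 180 CPM in KO footprints. *Smoc2* was the largest part of this sum in every library, at 74.1, 80.1 and 79.1 CPM in WT and 76.5, 109.8 and 119.0 CPM in KO. The sum therefore leans on that gene, and its overlap does not describe the other markers. Of these, *Irx3* was lower in KO without overlap (44.0, 50.3 and 42.3 CPM in WT, 30.6, 29.0 and 37.7 CPM in KO). Counts of *Isl1* and *Vsnl1* were at most 4 in any library of either assay, and those of *Shox2* at most 9. The part of such cells in the values of the 3 members was not tested.

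**Figure D3:**
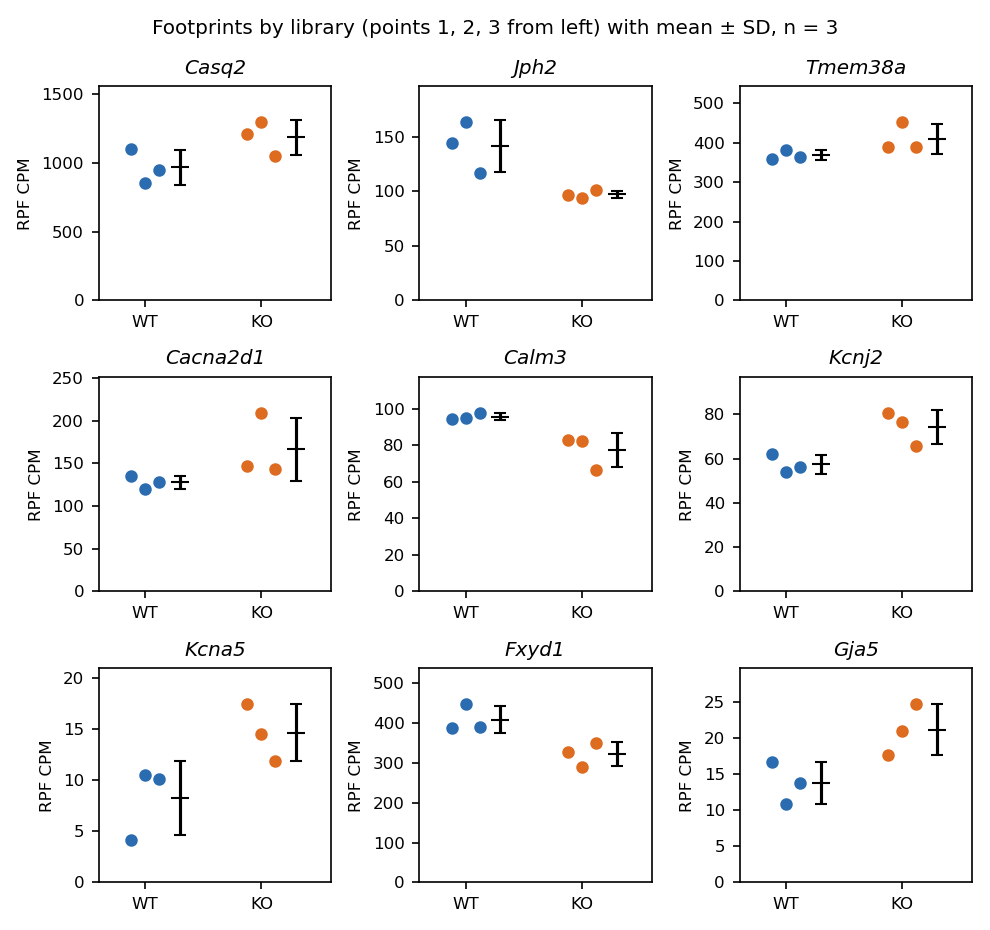
Footprint CPM by library for the 9 members whose genotypes did not overlap or whose unadjusted p was below 0.05, with the mean and SD of the 3 libraries beside the points. *Jph2*, *Calm3* and *Fxyd1* are lower in every KO library, *Casq2* overlaps, and the other 5 are higher in every KO library.

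The remaining 25 members tested in footprints had log2 fold changes from -0.47 (*Hcn4*) to 0.34 (*Trdn*), with SEs from 0.11 to 0.36, 14 higher and 11 lower. Over all 34 the median was 0.05, against 0.0014 over all genes, and 20 were higher in KO, against 50.2% of all genes. That median was 0.0020 without WT 3 (17 higher and 17 lower), 0.0065 without KO 2 and 0.10 without KO 3. In RNA the 29 members ran from -0.32 (*Abcc9*) to 0.53 (*Casq2*), with SEs from 0.16 to 0.49 and a median of 0.08 against -0.0066 over all genes. Of these, 20 were higher in KO, against 49.1% of all genes. The RNA median was 0.0031 without WT 2 (15 higher and 14 lower), 0.047 without KO 3, 0.14 without KO 2 and 0.15 without WT 3. Among simulated footprint counts 8 of 50 genes with a 1.5-fold change and 31 of 50 with a 2-fold change were found. Among simulated RNA counts 3 of 50 and 22 of 50 were found, so that most simulated 1.5-fold changes were missed. The changed genes were drawn at random from all genes tested, and recovery among the members was not measured.

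Footprint levels of different genes were compared as CPM per kilobase of coding sequence, in WT libraries (mean ± SD, n = 3). Whether only coding sequences were counted is not given, so that this order is approximate. It also leans on length, since *Pln* (156 coding bases), *Fxyd1* (276) and *S100a1* (282) have the shortest coding sequences of the group. *Pln* stood first at 26089 ± 2573, followed by *Atp2a2* at 7528 ± 1505. *Fxyd1* (1483 ± 125) and *S100a1* (1383 ± 182) overlapped, as did *Casq2* (776 ± 100.3), *Hrc* (763 ± 75.5) and *Gja1* (689 ± 105). *Tmem38a*, *Atp1b1* and the calmodulin pair came next, then *Slc8a1* (185 ± 22.2) and *Ryr2* (162 ± 36.8), which overlapped. At the low end were *Itpr1* (5.82 ± 1.76), *Kcna5* (4.58 ± 2.00) and *Hcn4* (3.46 ± 1.45), which overlapped in turn, and *Fkbp1b*. Of 34 neighbours in this order 10 were separated in every WT library and 24 overlapped. Of all footprint CPM of the group *Atp2a2* took 63.4%, *Pln* 10.2% and *Ryr2* 6.40%, shares that rise with length as well as with level.

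The mRNA levels, as CPM per kilobase of transcript (WT mean ± SD, n = 3), had another order. The region counted is not given for mRNA either. *S100a1* (644 ± 58.5), *Hrc* (619 ± 136), *Trdn* (503 ± 234) and *Fxyd1* (274 ± 13.0) stood first, each overlapping the next. *Atp2a2* (123 ± 54.6) followed without overlap on either side, then *Pln* (50.1 ± 11.6) and *Ryr2* (35.3 ± 20.2), which overlapped. *Trdn* took 37.3% of the group's mRNA CPM, *Hrc* 25.6% and *Ryr2* 10.1%. At the other end, 6 members had too few RNA counts to be tested. RNA counts of *Kcnj2* were 2, 1 and 0 (WT) and 1, 1 and 0 (KO), while its footprint counts were 302, 205 and 265 (WT) and 599, 521 and 313 (KO). RNA counts were 0, 0 and 0 (WT) and 0, 2 and 0 (KO) for *Hcn4*, 0, 1 and 1 (WT) and 2, 2 and 0 (KO) for *Scn4b*, 0, 1 and 6 (WT) and 1, 0 and 4 (KO) for *Gja5* and 4, 2 and 8 (WT) and 4, 3 and 4 (KO) for *Kcnd2*. No library held more than 8 RNA counts of any of these. Each of these 5 had at least 39 footprint counts in every library, and only *Fkbp1b* was near 0 in both assays.

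Footprints were therefore set against mRNA gene by gene, over both genotypes, in a fit whose scaling puts the typical gene near 0 (median log2 ratio 0.07). Of 29 members tested 26 had an adjusted p below 0.05, 19 with footprints higher and 7 lower, against 81.0% of all 8044 genes, 41.9% higher and 39.1% lower. Their median log2 ratio was 2.12. *Gja1* stood highest, at 5.99 (SE 0.19, adjusted p = 2.2e-13), with RNA counts of 35, 28 and 28 (WT) and 17, 27 and 49 (KO) against footprint counts of 4515, 2703 and 3441 (WT) and 5042, 4806 and 4140 (KO). *Slc8a1* (4.98, SE 0.16), *Abcc9* (4.92, SE 0.18), *Casq2* (3.92, SE 0.17) and *Camk2d* (3.91, SE 0.17) followed. *Trdn* was lowest at -5.21 (SE 0.29, adjusted p = 4.7e-11), with RNA counts of 22638, 18638 and 10955 (WT) and 10367, 19415 and 12163 (KO) against footprint counts of 658, 645 and 782 (WT) and 1255, 1703 and 833 (KO). *S100a1* (-1.70, SE 0.14), *Hrc* (-1.41, SE 0.15), *Kcnh2* (-1.04, SE 0.15) and *Hcn2* (-0.66, SE 0.22, adjusted p = 0.012) were the next lowest. *Ryr2* (adjusted p = 0.107), *Kcnip2* (0.429) and *Kcna5* (0.403) did not pass in edgeR's test. The 19 members between the extremes ran from -0.61 (*Calm3*) to 3.86 (*Atp2a2*), 16 above and 3 below 0. When each assay was scaled by itself, the median of all genes moved to 1.78, and *S100a1* (0.02), *Hrc* (0.31), *Kcnh2* (0.68) and *Hcn2* (1.06) changed sign while staying below that median. *Trdn* then had the only footprint-lower call among the members, and 26 were called higher. Of all 8044 genes 6116 were called higher under that scaling and 918 lower. *Hcn2* lost its call without WT 3 (adjusted p = 0.089), without KO 1 (0.054) and without KO 3 (0.070).

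What the members with high and low ratios share in sequence was examined after their values were seen, as a description. The A-richest 30 coding bases of 5 members are shown in capitals within 60 coding bases (GENCODE M21, GRCm38, 5′ to 3′), together with the whole *Pln* coding sequence, the shortest of the group, with its start codon in capitals.
Trdn-201 (chr10:33083483-33476709, plus strand), coding bases 902 to 961: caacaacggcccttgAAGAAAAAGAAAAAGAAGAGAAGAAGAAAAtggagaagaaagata
Ryr2-201 (chr13:11553102-12106945, minus strand), coding bases 13320 to 13379: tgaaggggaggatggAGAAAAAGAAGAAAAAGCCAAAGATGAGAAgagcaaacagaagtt
Hrc-201 (chr7:45335290-45338974, plus strand), coding bases 1703 to 1762: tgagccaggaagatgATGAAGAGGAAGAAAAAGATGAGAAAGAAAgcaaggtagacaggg
Gja1-206 (chr10:56379088-56390415, plus strand), coding bases 286 to 345: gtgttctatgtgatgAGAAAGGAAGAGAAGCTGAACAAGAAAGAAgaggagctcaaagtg
Atp2a2-201 (chr5:122456340-122502225, minus strand), coding bases 307 to 366: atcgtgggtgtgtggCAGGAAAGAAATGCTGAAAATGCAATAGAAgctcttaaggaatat
Pln-201 (chr10:53337693-53345987, plus strand), coding bases 1 to 156: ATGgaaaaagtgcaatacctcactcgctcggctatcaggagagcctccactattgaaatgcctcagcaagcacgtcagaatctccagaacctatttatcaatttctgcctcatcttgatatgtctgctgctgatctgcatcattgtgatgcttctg
The window of *Trdn* holds 23 A in 30 bases, that of *Ryr2* 20, that of *Hrc* 19, that of *Gja1* 18 and that of *Atp2a2* 16, the median of all genes. Over all genes with 23 to 30 A the median log2 ratio was -3.11 (64 genes), with 21 or 22 A it was -1.51 (321 genes), and in the classes below 21 it lay between -0.11 and 0.34. *Trdn* was the only tested member with 21 or more. *Slc8a1* and *Abcc9*, with 19 A each like *Hrc*, had high ratios of 4.98 and 4.92. Spearman's rho of the ratio with this A count was -0.02 over 7981 genes and 0.07 over the 29 members. The ratio also moved with the annotated 3′ UTR length. Genes with less than 100 bases had a median of -1.76 (438 genes), those with 100 to 299 bases -0.97 (1360 genes) and those with 1000 to 1999 bases 0.87 (1726 genes), and Spearman's rho was 0.39 over 7981 genes. *Hrc*, with 57 bases, and *S100a1*, with 187 bases, lay in the short classes, while *Gja1* had 1720 bases, *Abcc9* 1411 and *Camk2d* 3591. The 16 members with at least 1000 bases had a median log2 ratio of 3.2 and the 13 shorter ones 0.23, with rho 0.31 over the 29. Several members did not follow that order. *Slc8a1* (167 bases, ratio 4.98) and *Cacnb2* (135 bases, 2.82) were high with short annotated 3′ UTRs, while *Trdn* (2191 bases) and *Calm3* (1569 bases, -0.61) were low with long ones. For *Cacna1c* (ratio 2.12) and *Kcnip2* (-0.17) the transcript counted has no 3′ UTR annotated beyond the stop codon. Their 0 bases therefore do not give the length of a 3′ UTR. The 4 members with 100 to 299 bases had a median of 1.17. All points come from the same 12 libraries, and the part of these features in the ratios was not tested. The *Trdn* row is the isoform with 2079 coding bases, the longest of 7 annotated coding isoforms that go down to 168, and counts of a single row do not show which isoform the reads came from. Where in the transcript reads were counted is not given either, so a ratio need not be translation per mRNA. Of 3105 stretches of 28 coding bases in *Atp2a2*, 286 also occurred in *Atp2a1*, *Atp2a3* or *Gm30970*. Antisense genes overlap 1513 exonic bases of *Pln*, 2302 of *Asph* and 575 of *Atp1b1*, and whether the counting used strand is not given in the sources used here.

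**Figure D4:**
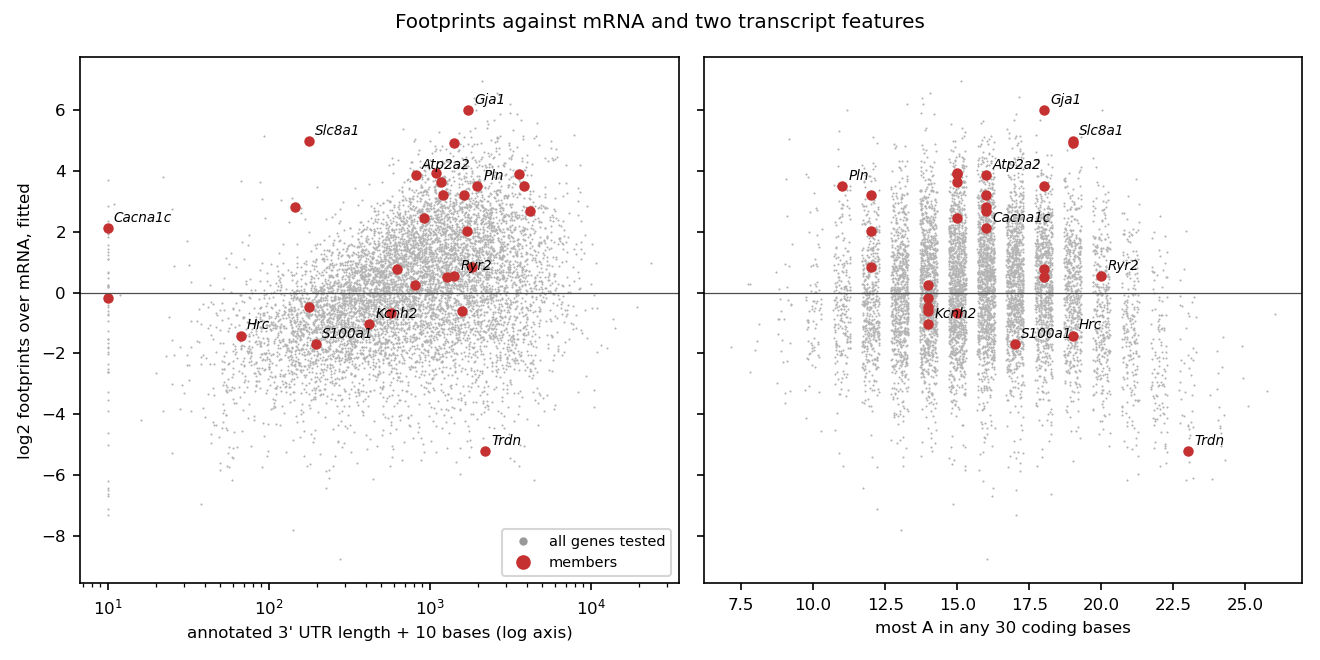
Fitted log2 ratio of footprints to mRNA for all genes tested (grey) and the members (red), against annotated 3′ UTR length plus 10 bases on a log axis (left) and against the largest number of A in any 30 coding bases (right, grey points spread sideways for visibility). *Trdn*, with 23 A, is the lowest member, and *Gja1* the highest.

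A wider list of 117 genes of the same pathways, which held other SR and calcium transport genes, calcium signalling, channels, pumps and junction scaffold, had 115 rows in the tables. In the comparison of KO with WT, 0 of 82 tested in RNA, 0 of 105 in footprints and 0 of 82 in TE had an adjusted p below 0.05 in edgeR, and 2, 6 and 3 had an unadjusted p below 0.05, against 2.54%, 5.96% and 3.73% of all genes. In footprints 7 were higher in KO without overlap and 4 lower, against 6.27% and 5.77% of all genes. Medians were -0.01 in RNA, 0.06 in footprints and 0.01 in TE. The 4 genes with the lowest p in footprints among those without overlap began with *Lrrc10*, a heart-restricted leucine-rich repeat protein, at 261, 369.7 and 284 CPM in WT and 214, 192 and 207 CPM in KO (log2 fold change -0.57, SE 0.15, unadjusted p = 0.0013, adjusted p = 0.833). *Jph1*, the other junctophilin of striated muscle, had 28.4, 22.7 and 27.7 CPM in WT and 15.6, 13.5 and 15.5 CPM in KO (-0.82, SE 0.23, unadjusted p = 0.0023, adjusted p = 0.833). *Fkbp1a*, a ryanodine receptor binding protein like *Fkbp1b*, had 80.4, 75.4 and 95.8 CPM in WT and 57.3, 57.8 and 70.0 CPM in KO (-0.45, SE 0.16, adjusted p = 0.834). The T-type calcium channel gene *Cacna1h* was the 1 of the 4 that was higher in KO, at 7.20, 14.2 and 8.25 CPM in WT and 17.8, 21.6 and 18.2 CPM in KO (0.97, SE 0.30, adjusted p = 0.834). In RNA the genes so chosen were *Fkbp1a* (0.38, SE 0.20), the caveolin gene *Cav3* (-0.19, SE 0.15) and *Micu2*, a regulator of mitochondrial calcium uptake (-0.18, SE 0.16), each with an adjusted p of 0.999 in edgeR. In TE they were *Fkbp1a* (-0.80, SE 0.26), *Ank3* (0.92, SE 0.33), *Trpm7* (0.43, SE 0.37) and *Kcnj8* (-0.28, SE 0.25), each with an adjusted p of 0.9997. In the ratio of footprints to mRNA 49 of 82 were called higher and 21 lower, with a median of 0.95, against 41.9% and 39.1% of all genes and a median of 0.07.

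The RNA libraries that stood apart did so for many members. *Trdn* mRNA was 3245, 2421 and 1148 CPM in WT and 1531, 2908 and 1231 CPM in KO, and *Ryr2* mRNA 867, 698 and 213 CPM in WT and 341, 896 and 356 CPM in KO. In both, WT 3, KO 1 and KO 3 were the 3 low libraries. *Atp2a2* mRNA, at 450.3, 376 and 832 CPM in WT and 602, 393 and 702 CPM in KO, ran the other way, with the same 3 libraries high. Of 29 members 6 had these 3 libraries all below the other 3 (*Abcc9*, *Calm3*, *Hrc*, *Ryr2*, *Slc8a1* and *Trdn*), against 18.3% of all genes. Another 9 had them all above (*Atp1b1*, *Atp2a2*, *Calm2*, *Casq2*, *Hcn2*, *Jph2*, *Kcnip2*, *Kcnq1* and *Tmem38a*), against 17.8%. The summed RNA CPM of 395 other genes with at least 21 A in 30 coding bases was 46298, 41025 and 23180 in WT and 26057, 42579 and 23208 in KO, with the same 3 libraries low. In footprints that sum was 31635, 30031 and 26856 in WT and 27635, 32762 and 32537 in KO. These 3 libraries hold 1 WT and 2 KO libraries, so that the KO against WT values in RNA include this spread, and its part in them was not tested. The coefficient of variation over 6 libraries had a median of 26.5% for members in RNA (22.0% for all genes), with *Ryr2* at 52.6%, and of 15.4% in footprints (22.1% for all genes).

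**Figure D5:**
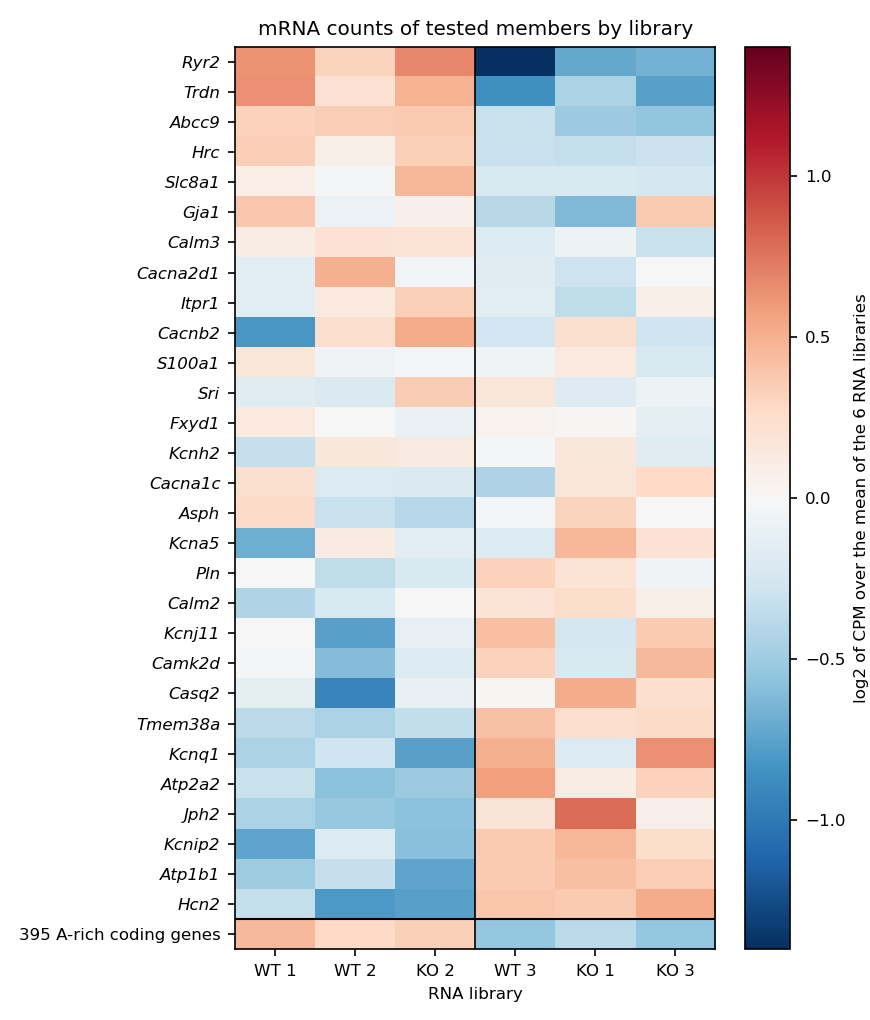
Log2 of RNA CPM over its mean across the 6 RNA libraries (columns) for the 29 members tested (rows) and, in the last row, for the sum of 395 other A-rich coding genes; red is above and blue below the mean. WT 3, KO 1 and KO 3, right of the line, share a pattern that does not follow genotype, with *Ryr2* and *Trdn* low and *Atp2a2* high.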

How the data were processed

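The authors deposited 12 tables of raw, whole-number counts, each with the same 21669 transcript names. Cutadapt 1.18 and Bowtie2 2.4.2 are named in the submitters' processing notes. Not given in the sources used here are the genome build, whether whole transcripts or coding sequences were counted, whether strand was used, and how multi-mapping reads were treated. Per the labels' protocols, RNA libraries were made from polyadenylated RNA with a directional kit and RPF libraries with a small-RNA kit. Members and gene lists were chosen with earlier results of these data known.

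Of the names, 21425 (98.87%) matched GENCODE M21 (GRCm38), which supplied coordinates, lengths and coding sequences. Tests used edgeR 4.0.16 (R 4.3.3): filterByExpr with a minimum count of 10, TMM scaling, glmQLFit and glmQLFTest over all genes, with Benjamini-Hochberg adjustment and a threshold of 0.05. RNA and RPF were each fitted over 6 libraries. TE (the assay by genotype interaction) and the ratio of footprints to mRNA were fitted over all 12. SEs are the absolute log2 fold change over the square root of F. CPM used TMM-scaled library sizes, and ratios per replicate number added 0.5 counts. Alternatives were median-of-ratios scaling, DESeq2 1.42.0, a filter of mean 50 counts or none, mitochondrial mRNAs left out, a replicate block, other fits and scalings, and leaving out each replicate. The fits were tested on simulated counts with 50 genes changed at each fold. Counts cover reads, not molecules, so floors cover counting error only.

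Members were named with their levels, and fold changes were printed where genotypes did not overlap or the unadjusted p was below 0.05. For footprints against mRNA the 5 highest and 5 lowest members were given. Of the wider pathway lists up to 4 genes per comparison were named, by lowest p among genes of mean 50 counts or more whose genotypes did not overlap, and for footprints against mRNA only their counts. Sequence features and the order of the RNA libraries were examined after the values were seen.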

Additional observations from a re-analysis of the deposited data

How the results depend on the processing

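In the comparisons of KO with WT, 0 members were called in RNA, footprints or TE under the 13 alternatives run for each, with lowest adjusted p-values of 0.525, 0.160 and 0.395. The 9 members whose footprints did not overlap or had an unadjusted p below 0.05, and *Jph2* in TE, kept their direction under each. Other members were not followed one by one. When a replicate was left out, the median over members lay between 0.0031 and 0.15 for RNA and between 0.0020 and 0.10 for footprints. Of the single values, 294 kept direction and side of the threshold, 5 lost a call (all of *Hcn2*) and 4 reversed. Scaled within each assay, footprints against mRNA reversed for *S100a1* (0.025), *Hrc* (0.31), *Kcnh2* (0.68) and *Hcn2* (1.06), since that scaling moves the median of all genes to 1.78. The median over members was then 3.84, and it was 2.03 with median-of-ratios scaling, 2.03 with DESeq2, 2.31 without a filter, 1.31 with a mean of at least 50 counts, 2.54 in WT alone, 2.21 in KO alone and 1.96 to 2.21 when a replicate was left out. With a mean of at least 50 counts 17 members (13 higher and 4 lower) and 3231 genes (1612 higher and 1619 lower) were called. The members tested there were 15 with a ratio above 0 and 6 below. Without a filter 31 members and 10434 genes were called. These filters change which genes are tested, and single ratios moved as well. *Trdn* was at -4.67 and *Hrc* at -0.87 with a mean of at least 50 counts, and at -5.58 and -1.78 without a filter. The TE median over members, 0.02, was -0.14 with a mean of at least 50 counts and ran from -0.20 (without WT 3) to 0.078 when a replicate was left out. Over all genes, 4 were called in RNA without a filter, 60 in footprints without a filter and 5 with DESeq2, and 3 in TE without a filter and 1 with DESeq2, against 1, 1 and 0. When a replicate was left out, 1 to 2 genes were called in footprints. The causes were not tested.

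Replicate numbers are shared between groups, but nothing states that they pair animals. Deviations of same-numbered WT and KO libraries correlated at -0.20, 0.36 and 0.41 in RNA and at 0.06, 0.03 and 0.00 in footprints, and those of RNA and footprint libraries at 0.08 to 0.15. With the number as a replicate block, 1 gene was called in RNA, 4 in footprints (all lower in KO) and 0 in TE (285 at an unadjusted p below 0.05 in edgeR), with 0 members in each. For footprints against mRNA the replicate block called 6515 genes and 27 members.

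With 3 libraries per group, the simulated tests recovered 8 of 50 genes changed 1.5-fold in footprints, 3 in RNA and 0 in TE. Changes of that size in a member would mostly be missed. The 6 members with few RNA counts have no RNA or TE value, and levels of overlapping or near-identical genes depend on a counting scheme that is not given here.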
